A study of Mus musculus with 15 samples.

Results

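The genes described here are 9 genes by which T cells are recognised in RNA of a whole tissue: *Cd3d*, *Cd3e*, *Cd3g*, *Cd2*, *Cd4*, *Cd8a*, *Lck*, *Zap70* and *Il2rb*. They were taken as a set by name and found by their exact symbol, and all 9 were present among the 21110 genes with a value. Their expression was measured by RNA-seq in ears of 15 mice, with 1 library for each mouse. The study asked how deletion of *Socs3* in keratinocytes, the main cells of the epidermis, changes gene expression of the ear at 2 ages. *Socs3* encodes a feedback inhibitor of cytokine signalling through JAK kinases and STAT factors.

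All mice were of the C57BL/6 strain. Wild type mice (4 at 2 weeks of age and 3 at 10 weeks) were compared with *Socs3* conditional knockout mice (*Socs3* cKO, 4 at each age), in which keratin 5 drives the deletion, so that T cells themselves are not its target. The labels name keratinocytes as the source but ear as the tissue, and RNA was taken from ear specimens, so the values are those of bulk ear. Genes of keratinocytes, fibroblasts, skeletal muscle, mast cells and antigen-presenting cells were all measured beside the T cell genes. In bulk tissue, fewer cells of a type and less RNA per cell cannot be told apart. The values are FPKM, fragments scaled by transcript length and by the mapped reads of the library, which are per length and may be set side by side between genes.

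T cells recognise antigen through a receptor whose variable chains signal through the CD3 chains gamma, delta and epsilon and the zeta chain. CD4 or CD8 binds the presenting molecule and brings the kinase LCK, which phosphorylates the CD3 chains, and ZAP70 then binds there and passes the signal on. CD2 strengthens contact with other cells, and the beta chain of the IL-2 receptor, encoded by *Il2rb*, receives IL-2 and IL-15. The mouse epidermis holds a resident population of gamma-delta T cells, most of which carry neither CD4 nor CD8, while the dermis also holds CD4-positive and other T cells. Several of the genes are shared with other cells, such as *Cd2* and *Il2rb* with natural killer (NK) cells and *Cd4* with some dendritic cells.

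Depth, estimated from the steps between low FPKM values, was 12700000 to 18200000 mapped reads per mouse. At this depth *Cd3g* rested on an estimated 104.2 to 464.9 reads per mouse, *Cd3d* on 19.7 to 160.5, *Zap70* on 8.0 to 67.2 and *Cd8a* on 1.0 to 17.1. The estimate for *Cd2* was 13.1 to 84.4 reads. The targeted gene did not fall evenly: the FPKM of *Socs3* at 2 weeks was 9.71, 10.2, 10.3 and 10.3 in wild type ears, with 1.25, 9.32, 12.6 and 3.51 in *Socs3* cKO. By 10 weeks the wild type had 2.76, 4.81 and 2.02, well below the 36.5, 29.8, 47.7 and 32.4 of *Socs3* cKO. The deleted part of the gene is not separable in these values, so they do not check the labels. Each group has library numbers of its own in the labels, so library batch and group cannot be told apart. The 3 wild type libraries of 10 weeks stood apart, with 2087, 3176 and 1414 genes at 0 FPKM against 4044 to 4423 in the other 12 libraries. The comparisons at 10 weeks, with age in the wild type and of the genotype by age interaction rest on them, and the part of this difference in those results was not tested. Replicate 1 of *Socs3* cKO at 2 weeks also stood apart, with the highest FPKM sum (671904, the others 436293 to 611361) and the fewest genes at 1 FPKM or more (11698, the others 12223 to 13251).

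The 9 genes differed widely in level, with the same genes at both ends of the order in all 4 groups. *Cd3g* had the highest mean in each group, between 11.5 FPKM (wild type, 2 weeks) and 24.8 (*Socs3* cKO, 2 weeks), and its lowest mouse lay above the highest mouse of the next gene in every group. *Cd8a* had the lowest mean in each group, 0.124 to 0.25 FPKM, again with no overlap with its neighbour in the order. The 7 genes between them had group means of 0.77 to 6.5 FPKM, and most neighbours among them overlapped in their mice. *Il2rb* changed place most, from rank 3 of 9 in wild type mice of 2 weeks to rank 8 in those of 10 weeks, with rank 3 in their *Socs3* cKO counterparts. Summed over the 9 genes, 2-week-old wild type ears had 23.5 to 32.7 FPKM and *Socs3* cKO ears 34.1 to 51.7, while the 10-week-old groups had 39.5 to 42.0 and 44.7 to 62.0. *Cd3g* carried much of this sum: without it the wild type and *Socs3* cKO overlapped at 2 weeks (14.3 to 18.2 and 14.9 to 18.3) and stood apart at 10 weeks (19.5 to 20.7 and 25.3 to 29.9). In that sum at 10 weeks, the means of *Il2rb* (0.935 and 5.7) and *Cd4* (1.54 and 3.89) differed most. Those of *Cd3d* (6.04 and 4.62) and *Lck* (2.28 and 1.77) were lower in *Socs3* cKO.

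**Figure D1:**
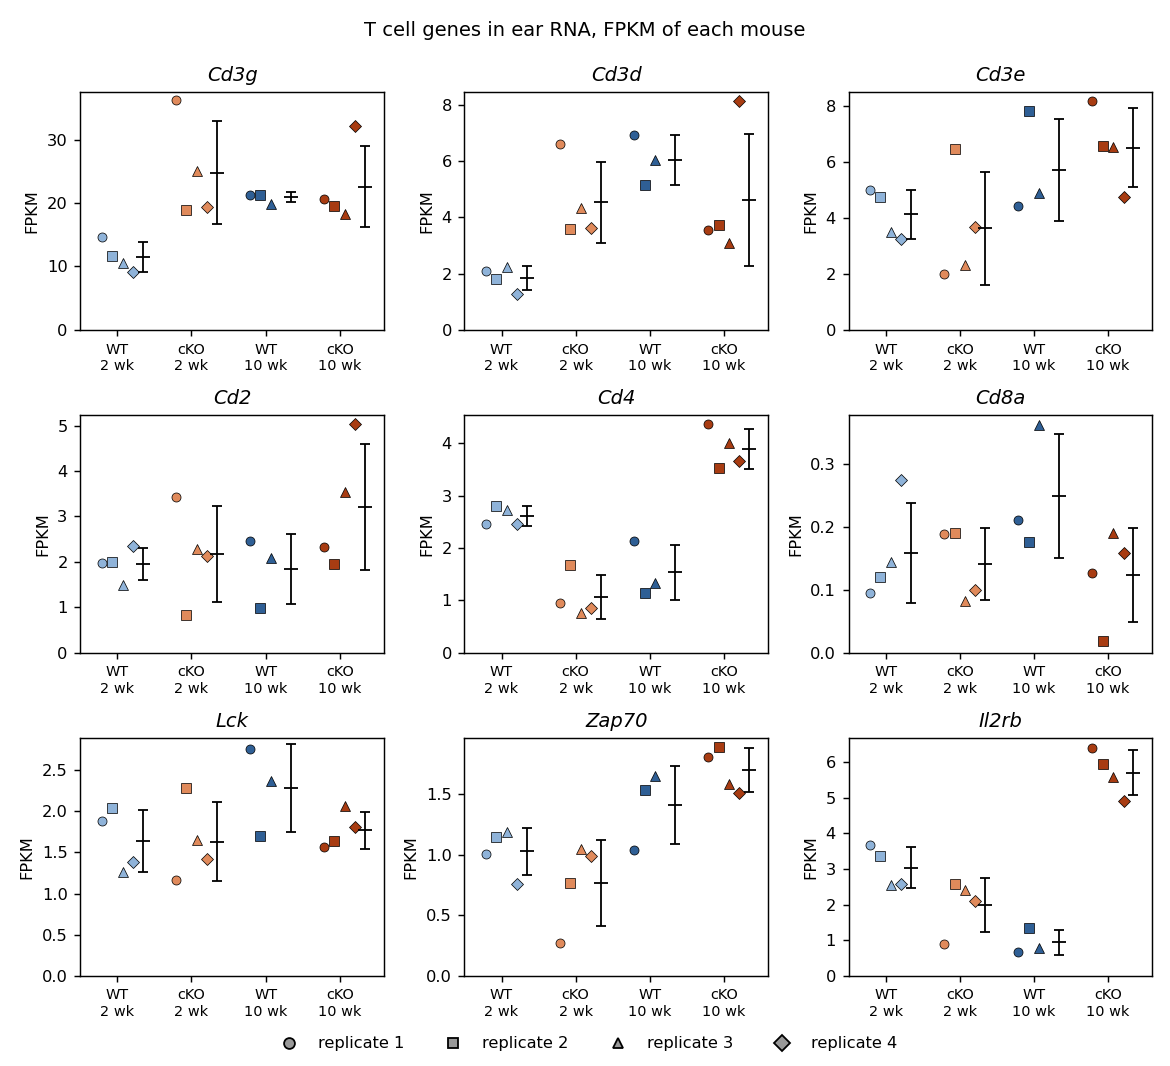
FPKM of the 9 T cell genes (y axes, linear from 0, a scale of its own for each gene) in wild type (WT) and *Socs3* cKO ears at 2 and 10 weeks. Each point is 1 mouse, its shape gives the replicate number, which does not pair mice between groups, and the black bar is the mean ± SD of the group (n = 4, or 3 for WT at 10 weeks). *Il2rb* was 4.9 to 6.4 in *Socs3* cKO at 10 weeks against 0.681 to 1.33 in the wild type, while *Lck* overlapped at both ages.

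Changes between groups were tested with limma on log2(FPKM + 0.1), fitted to every gene that reached an FPKM of 1 in 3 or more of the libraries compared, with Benjamini-Hochberg adjustment over all of them. A gene was called when its adjusted p was below 0.01 and its log2 fold change was at least 1 in size, the thresholds of the study. Of the 9 genes, 8 passed the expression filter in each comparison, and *Cd8a* did not. At 2 weeks 3 of the 8 were called, *Cd3d* and *Cd3g* higher and *Cd4* lower in *Socs3* cKO, where 14.4% of the 13524 genes tested were called in either direction, 7.24% higher and 7.19% lower. At 10 weeks 2 of the 8 were called, *Cd4* and *Il2rb*, both higher, where 14.9% of 13105 genes were called in either direction, 12.5% higher and 2.43% lower. Of these calls, *Il2rb* at 10 weeks needed the *Socs3* cKO mice to pass the expression filter. *Cd4* at 2 weeks needed the wild type mice to pass it. The median log2 fold change of the 8 genes was -0.16 at 2 weeks and 0.24 at 10 weeks, beside -0.21 and 0.31 over all genes tested. Scaling by the median of ratios between samples moved these medians of all genes to 0 and 0.05.

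**Figure D2:**
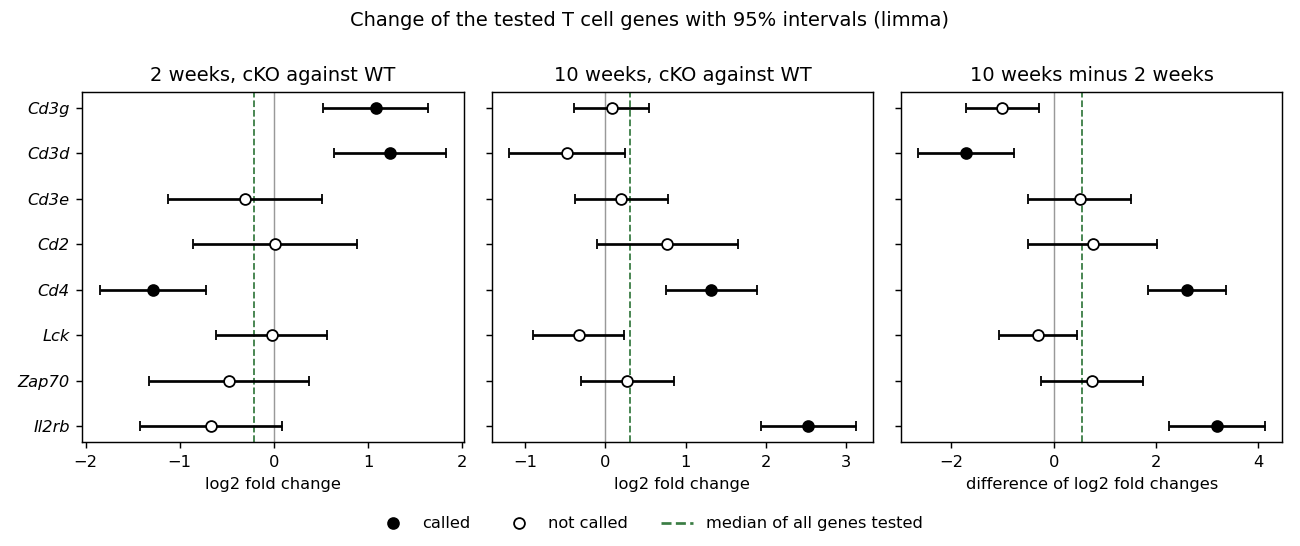
Log2 fold change of *Socs3* cKO against the wild type (x axes) for the 8 tested genes at 2 and at 10 weeks, and the difference between these 2 changes (genotype by age interaction). Points are estimates, bars are 95% intervals from limma, filled points were called, and the dashed line is the median over all genes tested. *Cd4* fell at 2 weeks (-1.28) and rose at 10 weeks (1.32), and *Il2rb* had the highest value at 10 weeks (2.53).

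The CD3 chain genes lie together on chromosome 9 (mm9): *Cd3g* at 44777655 to 44788514 on the minus strand, *Cd3d* at 44789876 to 44795135 on the plus strand, and *Cd3e* at 44806826 to 44817673 on the minus strand. *Cd3g* and *Cd3d* are read away from each other from neighbouring starts, with 1361 bases between them, and 11690 bases separate *Cd3d* from *Cd3e*. No annotated gene overlaps any of the 9. The 250 bases upstream of each start (RefSeq, GRCm38.p6) are shown. They were looked up after *Cd3g* and *Cd3d* were seen to vary together between mice and *Cd3e* was not. Any part of these sequences in the levels of the genes was not tested. Capitals mark the E-box CACCTG, searched on both strands (CACCTG or CAGGTG) and chosen after the sequences were seen.
Cd3g, chr9:44980432-44980681, minus strand: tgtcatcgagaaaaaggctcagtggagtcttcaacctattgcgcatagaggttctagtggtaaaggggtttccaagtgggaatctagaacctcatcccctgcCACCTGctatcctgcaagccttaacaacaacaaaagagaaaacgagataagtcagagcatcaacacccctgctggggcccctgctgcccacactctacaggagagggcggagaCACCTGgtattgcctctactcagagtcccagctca
Cd3d, chr9:44981536-44981785, plus strand: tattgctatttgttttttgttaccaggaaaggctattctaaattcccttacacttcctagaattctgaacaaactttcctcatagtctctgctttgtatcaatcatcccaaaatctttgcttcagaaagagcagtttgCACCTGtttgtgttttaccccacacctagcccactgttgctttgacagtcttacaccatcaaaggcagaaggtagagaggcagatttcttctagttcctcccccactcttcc
Cd3e, chr9:45009612-45009861, minus strand: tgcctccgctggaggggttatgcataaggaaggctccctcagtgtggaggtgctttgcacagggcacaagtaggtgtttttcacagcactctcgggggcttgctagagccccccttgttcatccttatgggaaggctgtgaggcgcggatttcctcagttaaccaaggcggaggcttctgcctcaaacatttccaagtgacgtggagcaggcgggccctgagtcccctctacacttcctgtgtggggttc

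The *Cd3g* window held this E-box at positions -148 and -35 from the start, the *Cd3d* window held it once at -112, and the *Cd3e* window did not hold these letters. Of 32851 upstream windows of 250 bases in the same table, 17.2% held the motif at least once and 2.1% held it 2 or more times. The ETS core GGAA (or TTCC), searched likewise, was present 2 times in the *Cd3g* window, 6 times in that of *Cd3d* and 5 times in that of *Cd3e*, and 93.4% of all windows held it. The GC content of the windows was 51.6%, 41.2% and 57.2%.

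*Cd3g*, the gene of the CD3 gamma chain, was higher in every *Socs3* cKO mouse than in every wild type mouse at 2 weeks. Wild type mice had 14.6, 11.7, 10.5 and 9.17 FPKM, *Socs3* cKO mice 36.2, 18.9, 25.0 and 19.3. Such a separation upward was seen in 22.9% of all genes tested at this age. The change was 2.11-fold (log2 fold change 1.08, SE 0.24, adjusted p = 0.00998 by limma), just inside the threshold. By 10 weeks wild type mice had reached 21.3, 21.3 and 19.9 FPKM, close to the 20.7, 19.5, 18.2 and 32.1 of *Socs3* cKO mice, so that only replicate 4 stood above the wild type mice (0.08, SE 0.21, adjusted p = 0.784).

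*Cd3d*, which encodes the delta chain, showed the same separation at 2 weeks. Values of 2.09, 1.80, 2.24 and 1.27 FPKM in wild type ears contrasted with 6.61, 3.57, 4.34 and 3.62 in *Socs3* cKO ears, 2.35-fold higher (1.23, SE 0.26, adjusted p = 0.008). At 10 weeks the wild type mice had 6.93, 5.16 and 6.03 FPKM and the *Socs3* cKO mice 3.55, 3.72, 3.10 and 8.12. Of the *Socs3* cKO mice, 3 were lower than any wild type mouse and the other was higher than all of them, and the gene was not called (-0.48, SE 0.32, adjusted p = 0.258). The interaction of genotype and age was -1.71 (SE 0.43, adjusted p = 0.00676), in a comparison in which 24.5% of 13937 genes were called in either direction, 18.0% higher and 6.55% lower.

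*Cd3e*, the gene of the epsilon chain, which pairs with both other chains in the receptor, did not follow them. Young wild type mice had 4.98, 4.75, 3.48 and 3.25 FPKM and young *Socs3* cKO mice 2.01, 6.47, 2.32 and 3.66, where the latter spread on both sides of the wild type (-0.31, SE 0.36, adjusted p = 0.488). At the later age the values were 4.43, 7.81 and 4.88 against 8.17, 6.57, 6.51 and 4.75 in *Socs3* cKO, again overlapping (0.20, SE 0.26, adjusted p = 0.555). The *Socs3* cKO mouse with the most *Cd3g* and *Cd3d* at 2 weeks, replicate 1, had the least *Cd3e*.

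The ratio of *Cd3g* to *Cd3e* within a mouse was even in the wild type at 2 weeks, with 2.92, 2.47, 3.01 and 2.82, and uneven in *Socs3* cKO of that age, with 18.0, 2.92, 10.8 and 5.26. Older mice had ratios of 4.81, 2.73 and 4.08 (wild type) and 2.54, 2.97, 2.79 and 6.76 (*Socs3* cKO). The ratio of *Cd3g* to *Cd3d* was steadier: it lay between 5.29 and 5.77 in the 4 young *Socs3* cKO mice and between 3.08 and 7.21 over all mice. Across the 15 mice, log2 levels of *Cd3d* and *Cd3g* had a Pearson r of 0.90 (0.87 after subtraction of group means), whereas *Cd3e* had -0.01 with *Cd3d* (-0.53 after that subtraction) and -0.10 with *Cd3g* (-0.47). The mice fall into 4 groups and both genes of a pair are read from 1 library per mouse, so these values are a description.

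**Figure D3:**
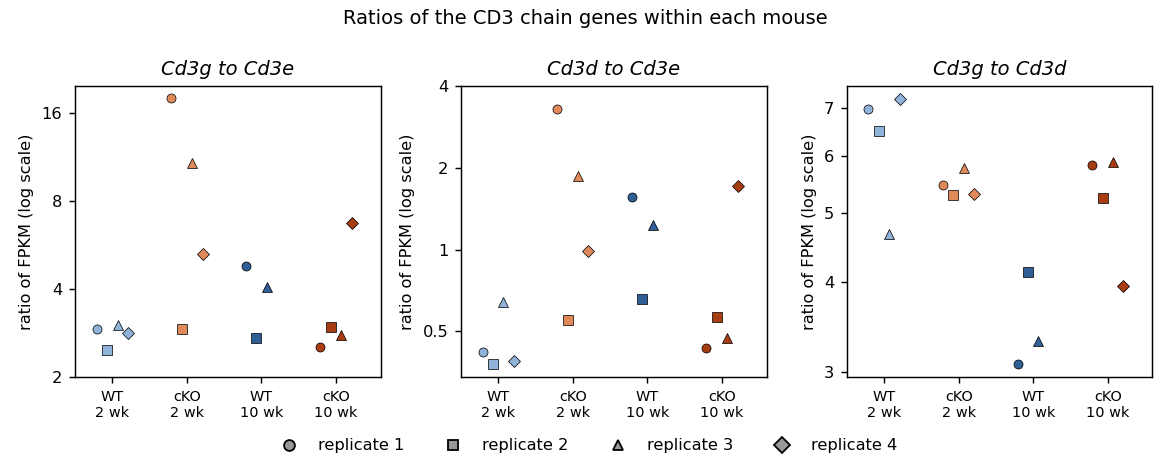
Ratios of FPKM between the CD3 chain genes within each mouse (y axes, log scale) by group. Each point is 1 mouse, its shape gives the replicate number, and no mean is drawn. At 2 weeks *Cd3g* to *Cd3e* ran from 2.92 to 18.0 among *Socs3* cKO mice and from 2.47 to 3.01 among wild type mice.

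Transcript length and base composition differ between these genes. The longest coding transcript is 1023 nt with 47.1% GC for *Cd3g*, 1323 nt with 50.8% for *Cd3d* and 1436 nt with 50.4% for *Cd3e*. The steps of the low values fitted best with 200 bases taken off the transcript length. When the trend of each sample with length and GC content was removed, an alternative chosen after seeing the data, *Cd3g* at 2 weeks fell to 0.29 (adjusted p = 0.159), *Cd3d* to 0.97 (adjusted p = 0.00659) and *Cd4* moved to -0.69 (adjusted p = 0.0406), and 0 members were called. *Cd3e* was then at -0.55 (adjusted p = 0.246). The genes most like *Cd3g* over the 15 mice, looked up after its values were seen, were *Tmem60* (r 0.96), *Rps25*, *Pigp* and *Rpl17* (r 0.95 each), of which *Rps25* and *Rpl17* encode ribosomal proteins. None of these 4 is known as a T cell gene. The same look-up gave *Cox16* and *Sod1* (r 0.96 each) for *Cd3d* and *Prkcb* (0.94) for *Cd3e*. For *Cd4* it gave *Procr* and *Sfrp2* (0.92 each), and for *Il2rb* *Bicc1* (0.97) and *Nod2* (0.96). Close matches outside the 9 genes were thus not particular to *Cd3g*.

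The calls at 2 weeks changed with single mice and settings. Leaving out any 1 of the 4 wild type mice, or *Socs3* cKO replicate 3 or 4, left 0 members called, with an adjusted p of 0.016 to 0.0274 for *Cd3d* and 0.0173 to 0.0229 for *Cd4* in limma. Without *Socs3* cKO replicate 1, the library that stood apart, *Cd3g* was not called (0.88, adjusted p = 0.00257), while *Cd3d* (1.04, adjusted p = 0.0027) and *Cd4* (-1.26, adjusted p = 0.00291) were. With a pseudocount of 1, *Cd3d* (0.94) and *Cd4* (-0.83) were under the fold required, and without the expression filter *Cd3d* (adjusted p = 0.0105) and *Cd3g* (adjusted p = 0.0121) were past the threshold. *Cd3g* was also not called with median-of-ratios scaling (1.28, adjusted p = 0.0115), with a pseudocount of 0.01 (adjusted p = 0.0106) or with a constant prior variance (adjusted p = 0.0112), nor was *Cd4* with quantile normalization (-0.73, adjusted p = 0.0332).

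*Cd4*, the coreceptor of helper and regulatory T cells, changed in opposite directions at the 2 ages. Wild type mice had 2.46, 2.81, 2.72 and 2.45 FPKM at 2 weeks and *Socs3* cKO mice 0.951, 1.67, 0.762 and 0.846, with every *Socs3* cKO mouse lower, as in 33.2% of all genes tested. It fell 2.44-fold (-1.28, SE 0.25, adjusted p = 0.00557 by limma). The older wild type mice had 2.14, 1.15 and 1.34 and the older *Socs3* cKO mice 4.36, 3.52, 4.01 and 3.66, with every *Socs3* cKO mouse higher, as in 31.2% of all genes tested. It rose 2.5-fold (1.32, SE 0.26, adjusted p = 0.0044).

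The difference between the *Cd4* changes at the 2 ages was 2.60 (SE 0.35, adjusted p = 0.000164 by limma), and it was called under every alternative tried (1.56 to 2.74). The single changes were less firm. The rise at 10 weeks was not called with a pseudocount of 1 (0.96), median-of-ratios scaling (1.07, adjusted p = 0.0108), quantile normalization (0.92) or the trend with length and GC content removed (0.85). It was also not called without wild type replicate 3 (adjusted p = 0.021) or *Socs3* cKO replicates 1, 2 or 3 (adjusted p = 0.0122 to 0.0165).

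Relative to *Ptprc*, which encodes the leukocyte protein CD45, the genotypes stood apart for *Cd4* at 2 weeks (wild type 0.433 to 0.55, *Socs3* cKO 0.0707 to 0.187) but overlapped at 10 weeks (0.196 to 0.375 and 0.227 to 0.372). *Ptprc* itself went from 4.95 to 6.48 FPKM in young wild type mice to 8.29 to 11.9 in young *Socs3* cKO mice, and from 3.92 to 5.86 to 11.5 to 16.1 in the older ones, where it rose by 1.38 (SE 0.22, adjusted p = 0.00174). The rise at 10 weeks was also called with median-of-ratios scaling, but not with quantile normalization or the trend with length and GC content removed. *Ptprc* is 1 of 10 genes of most leukocytes examined, and these did not move alike. Their changes ran from -1.48 to 1.12 at 2 weeks (median 0.38) and from -0.18 to 3.59 at 10 weeks (median 0.81). Ratios to the others of these genes were not taken.

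*Cd8a*, the coreceptor chain of cytotoxic T cells, was near the limit of measurement in all mice. Its FPKM at 2 weeks was 0.0953, 0.121, 0.144 and 0.275 for the wild type, with 0.189, 0.191, 0.0823 and 0.1 for *Socs3* cKO. The 10-week values were 0.212, 0.176 and 0.362, with 0.127, 0.0193, 0.191 and 0.159 for *Socs3* cKO. The groups overlapped at both ages, and a difference was not detectable at this depth (exact permutation test, 2-sided, p = 0.771 at 2 weeks and 0.114 at 10 weeks, where the smallest p possible is 0.0286 and 0.0571). *Cd4* was above *Cd8a* in all 15 mice, by 3.7 to 34.4-fold in 14 of them and by 182-fold in *Socs3* cKO replicate 2 of 10 weeks, where *Cd8a* rested on an estimated 1.0 read. Its partner chain *Cd8b1* did not pass the filter in the comparisons within an age either, and was highest in the wild type at 10 weeks (0.955, 1.92 and 1.99 FPKM against 0.36 to 0.687 in *Socs3* cKO).

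*Il2rb*, the receptor chain for IL-2 and IL-15, had the strongest change of the 9 genes. Wild type mice of 10 weeks had 0.681, 1.33 and 0.788 FPKM, while *Socs3* cKO mice had 6.40, 5.94, 5.57 and 4.90, with all of them above the wild type. Such a separation upward was seen in 31.2% of all genes tested at this age. The rise was 5.78-fold (2.53, SE 0.26, adjusted p = 0.000259 by limma). It was called under every alternative tried (1.80 to 2.65) and without any 1 of the 7 mice (2.35 to 2.79).

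In the young mice *Il2rb* measured 3.68, 3.35, 2.54 and 2.58 (wild type) and 0.888, 2.57, 2.41 and 2.09 (*Socs3* cKO). The *Socs3* cKO mice lay lower with a slight overlap, and the gene was not called (-0.67, SE 0.33, adjusted p = 0.119). The changes at the 2 ages differed by 3.20 (SE 0.44, adjusted p = 0.000173), which was called under every alternative (2.13 to 3.35).

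The ratio of *Il2rb* to *Cd3e* within a mouse was tight in 3 of the groups. It kept to 0.705 to 0.794 in young and 0.154 to 0.171 in older wild type mice, and to 0.783 to 1.03 in older *Socs3* cKO mice, but spread from 0.397 to 1.04 in the young ones. Relative to *Ptprc*, *Il2rb* stood apart at both ages, at 0.514 to 0.651 against 0.0746 to 0.287 at 2 weeks and 0.119 to 0.227 against 0.304 to 0.545 at 10 weeks. On this scale, which rests on *Ptprc* alone, *Socs3* cKO mice were lower at 2 weeks and higher at 10 weeks.

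With age alone, 2 of the 8 genes were called in the wild type: *Cd3d* rose (1.67, SE 0.32, adjusted p = 0.000856) and *Il2rb* fell (-1.63, SE 0.32, adjusted p = 0.00104), where 25.5% of all genes were called in either direction, 6.18% higher and 19.4% lower. The fall of *Il2rb* was under the fold required with quantile normalization (-0.94) and with the trend with length and GC content removed (-0.84). *Cd3g* was 0.88 higher (adjusted p = 0.00963), likewise under it. In *Socs3* cKO *Cd4* rose (1.84, SE 0.24, adjusted p = 0.000242) and *Il2rb* rose (1.56, SE 0.30, adjusted p = 0.00415), where 3.54% of all genes were called in either direction and 2.01% higher. The rise of *Il2rb* was not called when the fit held only the *Socs3* cKO mice (adjusted p = 0.0344) or without *Socs3* cKO replicate 1, 2 or 3 at 10 weeks (adjusted p = 0.0141 to 0.0164). These comparisons share mice with those between genotypes: the wild type fall of *Il2rb* and its rise in *Socs3* cKO are the same 15 values seen from the side of age.

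The kinases and *Cd2* were not called between genotypes at either age. *Lck*, the kinase of the coreceptors, had FPKM of 1.88, 2.04, 1.26 and 1.38 for the wild type against 1.16, 2.28, 1.65 and 1.42 for *Socs3* cKO at 2 weeks (-0.02, 95% interval -0.61 to 0.56). The later values were 2.76, 1.70 and 2.37 against 1.56, 1.64, 2.07 and 1.81 (-0.33, -0.90 to 0.23). The groups overlapped at both ages, and changes within these intervals are not excluded by the data.

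*Zap70*, the kinase that binds phosphorylated CD3 chains, gave 1.01, 1.15, 1.19 and 0.760 against 0.272, 0.764, 1.05 and 0.991 in young *Socs3* cKO mice (-0.48, -1.33 to 0.37). Older mice had 1.04, 1.54 and 1.65 against 1.81, 1.89, 1.59 and 1.51 (0.27, -0.30 to 0.85). The low value of 0.272 belongs to replicate 1 of *Socs3* cKO, the mouse that was also lowest in *Cd3e*, *Lck* and *Il2rb* within its group and highest in *Cd3g*, *Cd3d* and *Cd2*.

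*Cd2*, the adhesion receptor, gave 1.98, 1.99, 1.5 and 2.36 against 3.43, 0.836, 2.28 and 2.14 in young *Socs3* cKO mice (0.01, -0.86 to 0.88). The values in older mice were 2.45, 0.979 and 2.09 against 2.32, 1.96, 3.53 and 5.03 (0.77, -0.11 to 1.65). Within groups its log2 level ran against that of *Cd3e* (r -0.83) and of *Il2rb* (r -0.70), while *Zap70* ran with *Il2rb* (r 0.80) and *Cd3e* with *Il2rb* (r 0.75). The 9 genes therefore did not vary as 1 unit: the correlation of each with the mean of the other 8 over the 15 mice was -0.15 to 0.47. The non-members closest to the mean of all 9 were *Fcer1a* (r 0.89), a receptor chain of mast cells, *Colec12*, *Fgf23* and *Tcfl5* (0.88 each) and *Lsp1* (0.87), followed by *Gpx3*, *Pcdhb9*, *Trem2*, *Capg* and *Ramp3* (0.85 to 0.86).

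**Figure D4:**
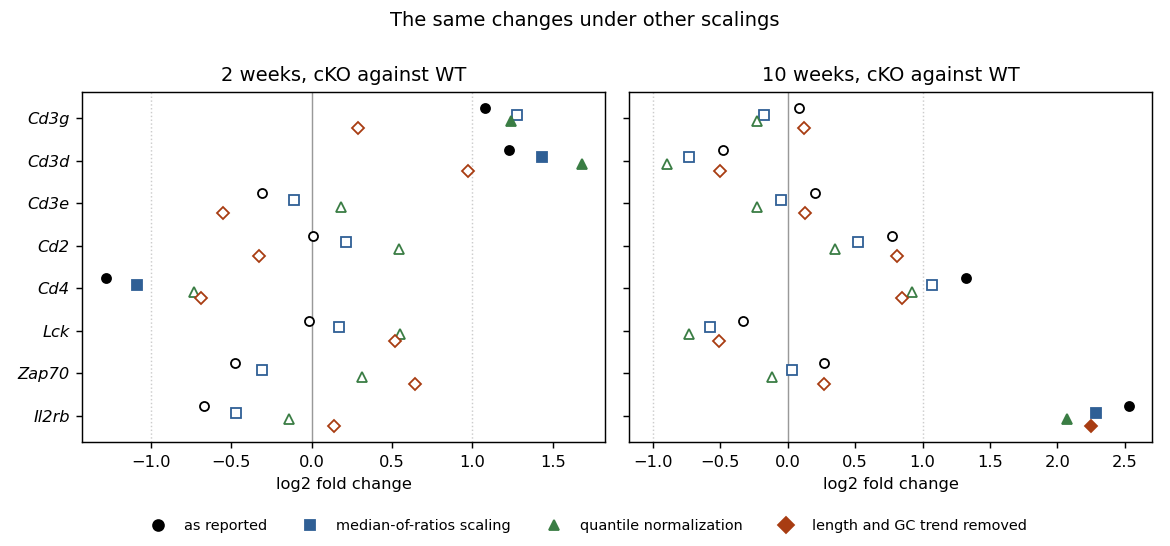
Log2 fold change of *Socs3* cKO against the wild type (x axes) for the 8 tested genes as reported and under 3 other scalings, at 2 and at 10 weeks. Filled symbols were called and dotted lines mark a log2 fold change of 1 in either direction. *Il2rb* at 10 weeks was called in each (2.07 to 2.53), while *Cd3g* at 2 weeks went from 1.08 to 0.29 with the length and GC trend removed.

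Other genes of T cell signalling were read from the same fits, and the counts that follow stand beside 7.24% of all genes called higher and 7.19% lower at 2 weeks, and 12.5% higher and 2.43% lower at 10 weeks. Under the other 3 scalings 5.52% to 8.15% of all genes were called higher at 10 weeks and 4.1% to 6.23% lower. At 2 weeks these scalings called 6.98% to 10.9% higher and 5.94% to 10.3% lower. The zeta chain gene *Cd247* ran from 3.06 to 4.74 FPKM (wild type) and 5.75 to 7.11 (*Socs3* cKO) in young mice (0.76, SE 0.19, adjusted p = 0.0129), with 4.76 to 7.7 and 9.2 to 11.1 in older mice (0.69, SE 0.20, adjusted p = 0.0252). Its groups did not overlap at either age, as was so upward for 22.9% of all genes tested at 2 weeks and 31.2% at 10 weeks. It met neither threshold at either age, though it was called at 2 weeks with quantile normalization (1.18). Of 26 kinases, adaptors and factors downstream of the receptor, 18 were tested at 2 weeks, of which 1 rose (*Trat1*, 1.73, adjusted p = 0.00573) and 2 fell (*Fyn*, -1.17, and *Nfatc2*, -1.10). At that age *Trat1* was not called with the trend with length and GC content removed, and 0 to 1 fell under the other scalings. At 10 weeks 6 of 21 rose (13 had an unadjusted p under 0.05 and 0 fell by limma), among them *Plcg1* (2.64, adjusted p = 0.00464) and *Nfatc2* (1.5, adjusted p = 0.00239), and 2 to 5 rose under the other scalings. Their median was -0.26 at 2 weeks and 0.68 at 10 weeks. *Trat1*, which encodes an adaptor bound to the receptor, also rose at 10 weeks (2.22, adjusted p = 0.00618). That call was kept with median-of-ratios scaling but not with quantile normalization or the trend removed.

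Among 18 further surface receptors of T cells, 0 of 6 tested were called by limma at 2 weeks, although all 6 had an unadjusted p under 0.05 and their median was 0.89. With quantile normalization 4 of the 6 were called higher (*Cd244*, *Cd48*, *Cd7* and *Cd96*), where 10.9% of all genes were. Median-of-ratios scaling gave 1 (*Cd7*) and removal of the trend gave 0. At 10 weeks *Icos*, a costimulatory receptor, rose (1.80, adjusted p = 0.00193), as did *Cd244* (1.06), and *Tigit*, an inhibitory receptor, fell (-2.34, adjusted p = 0.00322), out of 8 tested. Of the other scalings, only median-of-ratios scaling kept the call of *Icos*, and none kept that of *Cd244*. *Icos* (0.331 FPKM) and *Cd244* (0.749) had low wild type means and needed the *Socs3* cKO mice to pass the expression filter. Wild type mice had 2.71, 3.17 and 3.26 FPKM of *Tigit*, *Socs3* cKO mice 0.811, 0.368, 0.974 and 0.222, so it passed the expression filter through the wild type alone. Of the IL-2 and IL-15 pathway, 1 of 9 tested genes rose at 2 weeks, *Il7* (1.33), and at 10 weeks 1 of 10 rose, *Jak1* (1.09, adjusted p = 0.00462), and 1 fell, *Il2ra* (-1.67, adjusted p = 0.00475). Under the other 3 scalings *Jak1* was not called and 1 gene of this list fell. *Il7* was not called with the trend with length and GC content removed. Its wild type mean at 2 weeks was 0.748 FPKM, so it needed the *Socs3* cKO mice to pass the filter. The alpha chain *Il2ra* thus moved against the beta chain *Il2rb* at 10 weeks, with 1.55, 1.59 and 2.68 FPKM for wild type mice and 0.502, 0.636, 0.676 and 0.342 for *Socs3* cKO mice. *Il2ra* passed the expression filter through the wild type alone. The common chain *Il2rg* was 0.98 higher at 10 weeks (adjusted p = 0.00664), under the fold required.

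T cell transcription factors showed 3 falls among 13 tested at 2 weeks (*Lef1*, -2.81, *Tcf7*, -1.97, and *Runx1*, -1.82), of which *Lef1* and *Runx1* are also expressed in hair follicles. At 10 weeks *Ets1* (1.30) and *Id3* (1.03) rose and *Gata3*, which keratinocytes express as well, fell (-1.77), out of 12. Of the other scalings, only median-of-ratios scaling kept the call of *Ets1*, and only removal of the trend kept that of *Id3*. Of effector genes *Gzmc* fell at 2 weeks (-1.19), out of 5 tested, and *Il17a* was called higher at 10 weeks (adjusted p = 0.000627), out of 7, with 0 to 0.0635 FPKM for wild type mice and 0.69 to 2.66 for *Socs3* cKO mice. With median-of-ratios scaling or quantile normalization 0 effector genes fell at 2 weeks, while *Il17a* was called in every scaling. It passed the expression filter through the *Socs3* cKO mice alone, and no fold is given because the pseudocount sets it. *Ifng*, *Il17f*, *Il22* and *Il13* were below 1 FPKM in all mice.

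Of homing receptors limma called 0 of 8 at 2 weeks (4 at an unadjusted p under 0.05), and 4 of 9 rose at 10 weeks, among them *Ccr7* (2.59), the integrin gene *Itgal* (2.23) and *S1pr1* (1.43). Of chemokines that attract T cells 1 of 8 rose at 2 weeks, *Ccl21a* (1.66), and 3 of 9 at 10 weeks, *Ccl20* (5.15), *Cxcl10* (4.93) and *Cxcl16* (1.36). Under the other scalings 2 to 4 of the homing receptors and 2 to 3 of the chemokines rose at 10 weeks. At that age *Ccr7* (wild type mean 0.352 FPKM), *Itgal* (0.277) and *Cxcl10* (0.807) needed the *Socs3* cKO mice to pass the expression filter. The genes of skin gamma-delta T cells gave 1 rise (*Klrg1*, 2.22) and 1 fall (*Sox13*, -2.53) among 6 tested at 2 weeks, and limma called 0 of 6 at 10 weeks (1 at an unadjusted p under 0.05), with a median of 0.49. *Klrg1* (mean 0.295 FPKM in the wild type, 1.82 in *Socs3* cKO at 2 weeks) needed the *Socs3* cKO mice to pass the filter.

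Markers of other cells moved in the same comparisons. At 10 weeks, where 12.5% of all genes were called higher, 5 of 10 genes of most leukocytes rose (4 to 5 under the other scalings), with summed FPKM of 117 to 201 (wild type) and 175 to 259 (*Socs3* cKO). There 6 of 12 macrophage and neutrophil genes rose (summed 301 to 487 and 672 to 1130), led by *Cd14* (2.32), and 3 to 4 under the other scalings. Of dendritic and Langerhans cell genes 6 of 8 tested rose (755 to 894 and 1450 to 2230), and 4 to 5 under the other scalings, led by *Ccr7* (2.59), which is also counted among the homing receptors, and *Flt3* (2.35). *Flt3* (mean 0.447 FPKM in the wild type, 2.67 in *Socs3* cKO), like *Ccr7*, needed the *Socs3* cKO mice to pass the expression filter. Endothelial genes rose in 3 of 5 (summed 19.6 to 22.8 and 37.4 to 57.2), and in 1 to 2 under the other scalings.

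NK cell genes other than *Klrd1*, *Klrc1* and *Cd244* were below 1 FPKM in all mice, the defining markers *Ncr1* and *Klrb1c* included. *Klrd1* rose at 2 weeks (1.75, adjusted p = 0.00685), and *Klrc1* and *Cd244* were called higher at 10 weeks, *Klrc1* against wild type mice at 0 to 0.126 FPKM. Under the other scalings *Klrc1* kept its call and *Cd244* lost it in each. *Klrd1* lost its call with the trend with length and GC content removed. The NK genes summed to 2.69 to 4.48 FPKM (wild type) and 7.23 to 12.4 (*Socs3* cKO) in young mice and to 7.91 to 10.0 and 11.1 to 14.3 in older mice. Of B cell and plasma cell markers 7 of 9 stayed below 1 FPKM in all mice, *Ms4a1* included, and the only one tested, at 10 weeks, was not called (-0.52).

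At 2 weeks 1 of 11 macrophage and neutrophil genes rose, *S100a9* (4.60), along with 2 of 7 dendritic genes, *Cd207* (1.69) and *H2-Aa* (1.19), 1 of 6 mast cell genes, *Ms4a2* (1.43), and 1 of 10 genes of most leukocytes, *Cytip* (1.04). With the trend with length and GC content removed, *H2-Aa*, *Ms4a2* and *Cytip* were not called. *H2-Aa* was not called with quantile normalization either, while *S100a9* and *Cd207* were called under each of the other scalings. Genes of other parts of the skin moved further: 6 of 6 hair keratins fell, with summed FPKM of 505 to 861 (wild type) and 0.902 to 9.67 (*Socs3* cKO), and 3 of 5 muscle genes rose (602 to 916 and 1420 to 2800). The part of these other cells in the changes of *Cd3g*, *Cd3d*, *Cd4* and *Il2rb* was not tested.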

How the data were processed

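RNA from ears of 15 mice was sequenced by the authors as single reads of 50 bases from an unstranded kit and aligned to mm9 with TopHat2 (2.1.0 in the submitters' processing notes, which also name Cufflinks). The deposited values are FPKM per gene, normalized by the authors for length and mapped reads. The edgeR step of the study needs read counts, which were not used here.

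Groups and replicate numbers came from the labels. The study describes a wild type group of 6 (2 weeks) and of 4 (10 weeks), of which the mice beyond 4 and 3 were not analysed here. No label names litters or days, so p-values measure the spread between these mice.

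Differences were tested on log2(FPKM + 0.1) with limma (3.58.1, R 4.3.3, trend in the prior variance), 2-sided, with Benjamini-Hochberg adjustment over all genes tested and no replicate block. Each age was fitted on its 2 groups, and age effects and the interaction on all 4. *Cd8a*, below the filter (an FPKM of 1 reached in 3 or more samples), was given exact permutation tests (Python 3.11.15, numpy 2.4.6, pandas 2.3.3, scipy 1.17.1, matplotlib 3.10.9).

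Gene positions, lengths and GC content came from a GENCODE annotation of mm9 (a value for 92.1% of genes), and upstream windows from RefSeq (GRCm38.p6), which held 6 of the 9 genes. Depth was estimated from low values of genes with 1 transcript, taking 200 bases off the length, where 65.6% to 69.7% of low values lay within 0.1 of a whole read.

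The 9 genes and the lists were chosen with earlier results of these data known. Genes named were all 9, from each list up to 3 called genes of each age by adjusted p, the 10 genes most like the mean of the 9 and *Socs3*. Other genes (*Cd247*, *Ptprc*, *Cd8b1*, *Il2rg*, *Cd7*, *Cd48*, *Cd96*, *Trat1* at 10 weeks, those most like single members and those below 1 FPKM) were named after their values were seen.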

Additional observations from a re-analysis of the deposited data

Results flagged for a closer look

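*Cd3d* in *Socs3* cKO at 10 weeks held 1 mouse far from the other 3: replicate 4 had 8.12 FPKM and the others 3.10 to 3.72, a gap of 0.876 of the group's range. Chance gives such a gap in about 1 in 20 groups, and 27 groups of 4 mice were examined. This mouse was highest in its group for *Cd3g* (32.1) and *Cd2* (5.03) and lowest for *Cd3e* (4.75) and *Il2rb* (4.90).

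The change between genotypes differed between 2 and 10 weeks for 3 of the 8 genes tested for the interaction by limma (*Cd8a* was not tested), where 24.5% of 13937 genes were called, 18.0% higher and 6.55% lower. The difference was -1.71 for *Cd3d*, 2.60 for *Cd4* and 3.20 for *Il2rb*. The call of *Cd3d* was lost with the replicate block (adjusted p = 0.0121) and on leaving out 1 mouse in 9 of 15 cases, with values of -2.01 to -1.52 and an adjusted p of up to 0.021. Those of *Cd4* and *Il2rb* were kept in all 15 cases.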

How the results depend on the processing

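At 2 weeks 1951 genes were called, and 751 with the replicate block, 3300 in the fit of all 4 groups (35.2% higher there, 50.2% in the 2-group fit) and 859 to 3348 without 1 mouse. The 3 members called became 1 with a pseudocount of 1 or without a filter, 0 with the replicate block or with the length and GC trend removed, and 0 to 3 without 1 mouse. At 10 weeks 1957 genes became 1260 with that trend removed and 745 to 2665 without 1 mouse, and the 2 members became 1 with a pseudocount of 1, median-of-ratios scaling, quantile normalization or the trend removed, and 1 to 2 without 1 mouse. The share of calls that were higher at 10 weeks was 83.7%. It became 62.4% under median-of-ratios scaling, 52.7% after quantile normalization, 57.4% after removal of the trend and 65.7% without a filter. For the interaction, 73.3% became 52%, 45.4%, 45.5% and 61.7%, and in the wild type with age 24.2% became 47.6%, 52.2%, 50.4% and 40.4%. Without 1 mouse the interaction gave 1959 to 4843 genes and 2 to 4 members, and the change with age gave 2205 to 3826 genes and 2 members in the wild type (5 members with quantile normalization, *Il2rb* not among them) and 300 to 700 genes and 1 to 3 members in *Socs3* cKO (146 genes and 1 member when fitted alone).

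Signs turned only for values that were not called, some of them as far from 0 as -0.76 (*Cd4* in the wild type with age), 0.76 (*Cd2*) and 0.75 (*Zap70*) for the interaction and -0.67 (*Il2rb* at 2 weeks). At 2 weeks quantile normalization gave *Cd3e* 0.18, *Lck* 0.55 and *Zap70* 0.31, median-of-ratios scaling gave *Lck* 0.17, and the trend removed gave *Cd2* -0.33, *Lck* 0.52, *Zap70* 0.64 and *Il2rb* 0.14. At 10 weeks median-of-ratios scaling gave *Cd3e* -0.05 and *Cd3g* -0.18, quantile normalization gave *Cd3e* -0.23, *Cd3g* -0.23 and *Zap70* -0.12, and the replicate block gave *Cd3g* -0.10. For the interaction quantile normalization gave *Cd3e* -0.41, *Cd2* -0.16 and *Zap70* -0.24, and the trend removed gave *Zap70* -0.36. With age in the wild type median-of-ratios scaling gave *Cd2* 0.21, quantile normalization gave *Cd2* 0.57, and the trend removed gave *Cd4* 0.07. In *Socs3* cKO the trend removed gave *Cd3d* 0.09, *Cd3g* 0.17 and *Lck* -0.03, and quantile normalization gave *Lck* -0.04. Without 1 mouse *Cd2* ranged from -0.25 to 0.39 and *Lck* from -0.19 to 0.11 at 2 weeks, *Cd3g* from -0.10 to 0.17 at 10 weeks, *Cd2* from -0.40 to 0.22 with age in the wild type, and *Cd3d* from -0.34 to 0.16 and *Cd3g* from -0.30 to 0.08 with age in *Socs3* cKO. The cause of these moves was not tested.

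Mice of the same number did not deviate together (correlations of -0.2 to 0.24), so the numbers do not pair them, and the block was an alternative only: it ended the calls of *Cd3d*, *Cd3g* and *Cd4* at 2 weeks (adjusted p = 0.016, 0.0129 and 0.0184) and left the calls of *Cd4* and *Il2rb* at 10 weeks. Depth limits *Cd8a* and the low mice of *Zap70* and *Cd2* most.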
